A study of Mus musculus with 6 samples.

Results

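Alveolar type 2 epithelial cells (AEC2s) with a high level of *Scd1* were examined in scRNA-Seq libraries of mouse lung. They were selected on their UMIs of *Scd1* and of 8 gate genes, in 3 steps. A cell barcode was kept when it held at least 500 genes, at least 1000 unique molecular identifiers (UMIs, each standing for 1 captured mRNA molecule), and less than 15% mitochondrial UMIs. It was then taken as an AEC2 when it held at least 1 UMI of at least 3 of the 4 genes *Sftpc*, *Lamp3*, *Slc34a2*, and *Etv5* and 0 UMIs of *Ptprc* (leukocytes), *Cdh5* (endothelium), *Col1a2* (fibroblasts), and *Foxj1* (ciliated cells). Of the 88578 barcodes, 44096 were kept and 11414 passed this gate. The gated cells in which *Scd1* supplied at least 20 of every 10000 UMIs, 8785 in number, were called Scd1-high AEC2s, and they were compared with gated cells of the same library that held less. The levels of these 9 genes are given as a description with no test. Only the share of gated cells past the *Scd1* limit was compared between genotype labels by a test.

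All libraries came from CD45– cells, enriched with magnetic beads, of the lungs of C57BL/6 mice aged 10 to 12 weeks, 2 weeks after 4 doses of tamoxifen. The 4 control libraries came from littermates whose alleles are not stated in the sources used here. The 2 libraries labelled Zip8 knockout came from *SFTPC-CreER Rosa26-tdTomato Zip8 fl/fl* mice, in which a Cre recombinase driven by the *SFTPC* promoter and switched on by tamoxifen acts on floxed *Slc39a8*, the gene of the zinc importer ZIP8, in AEC2s. The number of mice behind each library is not stated, so a p value measures only the spread between libraries.

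AEC2s make pulmonary surfactant, a film of phospholipid and protein that keeps alveoli open, and they store it in lamellar bodies until it is secreted. Much of the fatty acid for these phospholipids is made in the cell itself. Citrate is cleaved to acetyl-CoA by ATP citrate lyase (*Acly*), acetyl-CoA is carboxylated by acetyl-CoA carboxylase (*Acaca*), fatty acid synthase (*Fasn*) builds palmitate, and stearoyl-CoA desaturase 1 (*Scd1*) puts the first double bond into saturated acyl chains. The transcription factor SREBP1c (*Srebf1*) drives this pathway and its relative SREBP2 (*Srebf2*) drives cholesterol synthesis, while the ER protein INSIG1 holds both back. *Scd1* lies on the minus strand of chromosome 19 at chr19:44394455-44407879 (GRCm38), in a cluster with its close paralog *Scd2*.

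The control libraries held 105774150, 114018446, 118771907, and 93852253 UMIs, and the Zip8 knockout libraries held 107957330 and 103337822. The same barcode often appeared in more than 1 library. In all, 51016 barcodes did, of which 37093 were not the copy with the most UMIs, and the shares of Scd1-high cells and the gene tests were repeated without these lesser copies. Scd1-high AEC2s numbered 1539, 408, 804, and 2540 in control libraries 1 to 4 and 2208 and 1286 in Zip8 knockout libraries 1 and 2. Their median depth ran from 8745.5 UMIs in control library 4 to 14574.5 in control library 2.

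Zip8 knockout library 1 stood apart in the level of *Scd1* itself. The median over gated AEC2s was 40.5, 29.2, 27.0, and 48.4 *Scd1* UMIs per 10000 in control libraries 1 to 4, against 103 and 42.6 in Zip8 knockout libraries 1 and 2. Only Zip8 knockout library 1 lay above all controls, and library 2 lay inside their range. Among the Scd1-high cells alone the medians were 54.7, 50.8, 52.2, and 61.6 in the controls and 118.8 and 54.7 in the others, and the most extreme cell, at 672 per 10000, was in Zip8 knockout library 1. Genes named below between the genotype labels are given with and without that library, or by their level in each library. *Hba-a2* and *Col4a2*, and all single-gene interactions of label and *Scd1* level, are given with it only.

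**Figure D1:**
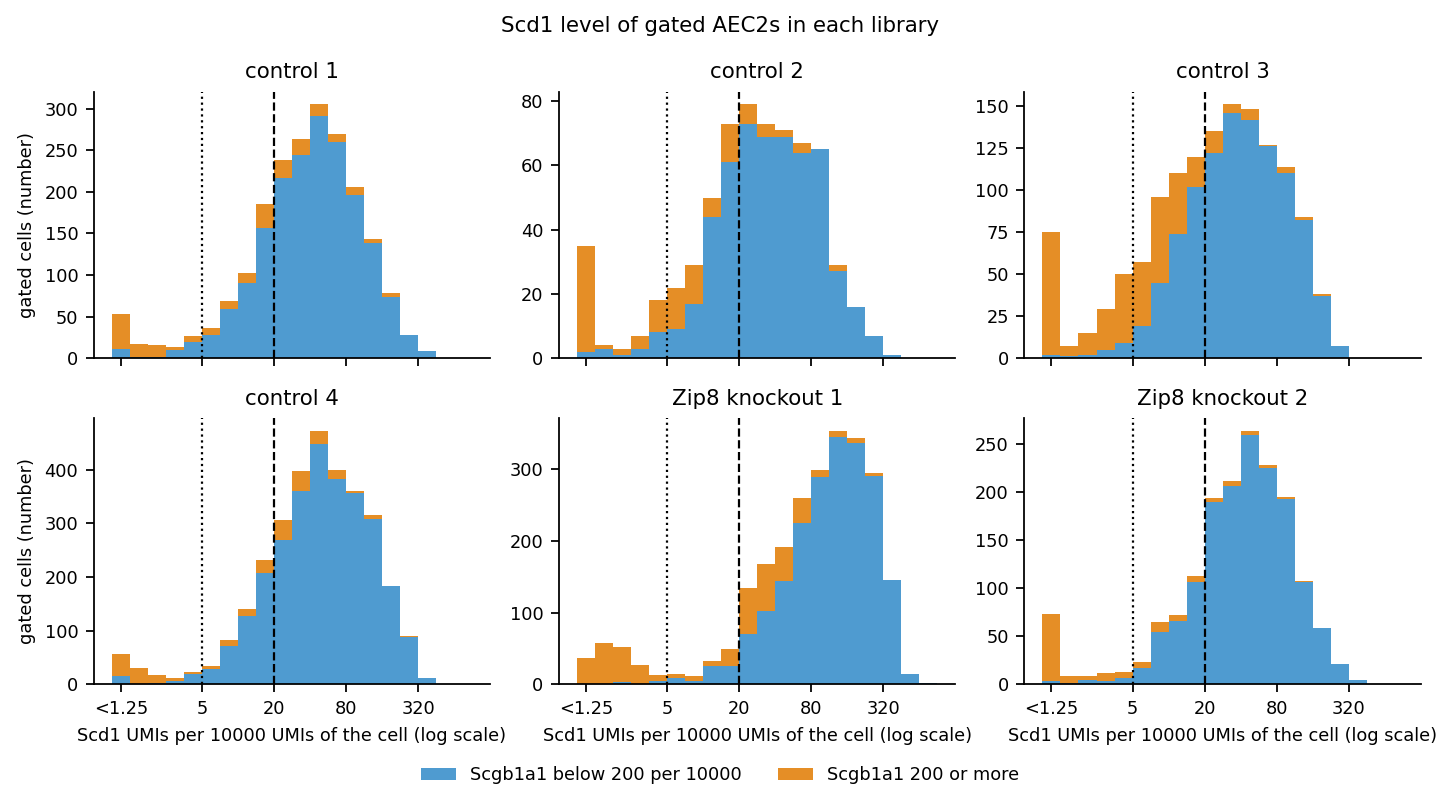
Number of gated AEC2s (vertical axis) by *Scd1* UMIs per 10000 UMIs of the cell (horizontal axis, log scale) in each of the 6 libraries, with cells of at least 200 *Scgb1a1* UMIs per 10000 in orange. The dashed line marks the limit of 20 for Scd1-high cells and the dotted line the limit of 5. In each library most cells lay in a broad peak that ran across the limit of 20. The cells below 5 were mostly rich in *Scgb1a1*, and in Zip8 knockout library 1 they formed a separate low peak.

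The Scd1-high cells carried mRNAs of AEC2s, of which *Sftpc* and *Lamp3* are gate genes that helped to choose the cells. *Sftpc*, the gene of surfactant protein C, made up 178790, 183865, 197370, and 190977 CPM (UMIs of a gene per 1000000 UMIs of the summed cells) in control libraries 1 to 4 and 101566 and 108077 in Zip8 knockout libraries 1 and 2. *Lamp3*, of the lamellar body membrane, stood between 1533 and 1761 CPM over the 6 libraries. Outside the gate genes, *Sftpb* stood between 9711 and 11743 CPM, *Sftpa1* between 20588 and 23404, and the lipid transporter *Abca3* between 920 and 1185. RNA of other cells was summed over marker lists. Over 12 macrophage genes it was 12.6 to 22.9 CPM per library, over 9 endothelial genes 16.3 to 31.6, over 10 fibroblast genes 77.1 to 218, and over 5 ciliated genes 92.8 to 148. The 5 erythroid genes, led by *Hbb-bs*, summed to 2386 CPM in control library 4 and to 8.54 to 234 CPM in the other 5 libraries. The 5 club cell genes summed to 7995 to 13552 CPM in the controls and to 33214 and 13933 in the Zip8 knockout libraries, nearly all of it *Scgb1a1*, the club cell secretoglobin. In 3.98% to 5.33% of Scd1-high cells of the controls and in 10.96% and 1.63% of those labelled Zip8 knockout, *Scgb1a1* supplied at least 200 per 10000 UMIs.

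The share of gated cells with high *Scd1* depended on the limit. At a limit of 30 *Scd1* it was 61.1%, 49.3%, 47.5%, and 68.5% in control libraries 1 to 4. In Zip8 knockout libraries 1 and 2 it was 82.1% and 62.9%. At the limit used here, most gated cells of each library were Scd1-high. Their share was 74.8%, 62.9%, 59.0%, and 80.2% in control libraries 1 to 4 and 88.3% and 76.8% in Zip8 knockout libraries 1 and 2. Wilson 95% intervals, which cover counting error only, were narrowest in Zip8 knockout library 1, from 87.0% to 89.5%, and widest in control library 2, from 59.1% to 66.5%. The controls averaged 69.2% ± 9.93 (SD, n = 4). The libraries labelled Zip8 knockout averaged 82.5% ± 8.14 (SD, n = 2), and the groups overlapped. The difference was 13.3 percentage points, 11.99 without cells rich in *Scgb1a1*, and 7.57 without Zip8 knockout library 1. An exact permutation test of the 13.3-point difference, in a share that *Scd1* itself defines, gave p = 0.267. The smallest p that 4 against 2 libraries allow is 0.133, so this test cannot decide whether the labels differ.

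A baseline for *Scd1* came from cells that should lack it. Endothelial cells of the same libraries averaged 0.38 to 2.13 *Scd1* UMIs per 10000 and ciliated cells 0.42 to 1.69, and no more than 0.75% of them in any library reached 20. With each cell thinned to 3000 UMIs, a *Fasn* UMI was found in 84.9% to 89.4% of Scd1-high cells. It was found in 60.7% to 73.3% of AEC2s with 5 to 20 *Scd1* per 10000 and little *Scgb1a1*. The share was 0% to 8.14% in endothelial cells and 7.29% to 14.2% in ciliated cells. Both AEC2 groups lay above both backgrounds in all 6 libraries.

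The gated cells below 5 *Scd1* per 10000 were largely another cell type. Of these 811 cells, 65.4%, 74.6%, 89.2%, and 68.3% in control libraries 1 to 4 and 95.2% and 81.9% in Zip8 knockout libraries 1 and 2 were rich in *Scgb1a1*, and the gene took 421068 to 552490 CPM of their mRNA. Their *Sftpc* stood between 1144 and 33957 CPM, under that of Scd1-high cells in every library. Of 11202 genes tested, 31.9% rose and 30.4% fell in Scd1-high cells against them, and scaled to total UMIs 8900 genes rose and 835 fell. The largest rises among well-expressed genes were led by *Fabp5* (log2 fold change 4.44), *Acoxl* (4.37), *Itih4* (4.27), and *Lyz1* (4.22), and the largest falls included the airway secretory genes *Tff2* (−7.57) and *Muc5b* (−6.98). All 5 club cell genes fell and all 14 AEC2 genes outside the gate rose, with median log2 fold changes of −6.79 and 2.22 beside 0.03 for all genes.

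The *Fasn* levels of this contrast, like all levels below unless another scale is named, are CPM after TMM scaling (edgeR's trimmed mean of log ratios), while those above were scaled to total UMIs. *Fasn* stood at 521, 512, 536, and 633 CPM in control libraries 1 to 4 and 746 and 537 CPM in Zip8 knockout libraries 1 and 2 in Scd1-high cells. In the cells below 5 it stood at 69.1, 73.4, 57.5, and 71.9 CPM in the controls and 48.0 and 60.2 CPM in the Zip8 knockout libraries, and the groups were far apart in each library (log2 fold change 3.22, SE 0.13, edgeR adjusted p = 4.83e-10). In the same contrast 8 of 10 fatty acid synthesis genes rose, with a median log2 fold change of 2.06, and 21 of 22 cholesterol genes rose, with a median of 2.25. In the first list *Acss2*, which makes acetyl-CoA from acetate, was lower in Scd1-high cells (−1.73), and *Mcat* did not pass (−0.00413). How much of these differences is between AEC2s and club cells and how much between AEC2s of high and low *Scd1* cannot be told apart here.

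Another comparison, chosen after the data were seen, therefore stayed within AEC2s. It set the Scd1-high cells against gated cells with 5 to 20 *Scd1* per 10000 (called AEC2s of intermediate *Scd1*), both limited to cells with less than 200 *Scgb1a1* per 10000. The intermediate cells numbered 1448, with 334, 131, 240, and 435 in control libraries 1 to 4 and 64 and 244 in Zip8 knockout libraries 1 and 2. Counts were summed per library and class and each library served as its own control. Median depth was 12621 UMIs in Scd1-high and 12103 in intermediate cells (mean of 6 libraries; exact sign-flip test, p = 0.09375). The mitochondrial share was higher in Scd1-high cells of all 6 libraries, 7.65% against 6.84% (exact sign-flip test, p = 0.03125, the smallest 6 pairs allow), and so was the median of *Scgb1a1*, the club cell gene, at 79.98 against 74.58 per 10000 (exact sign-flip test, p = 0.03125). The part of either in the results below was not tested. Of 10676 genes tested, 8.18% rose and 9.0% fell in Scd1-high cells, and the median log2 fold change of all genes was −0.01. These were 873 and 961 genes, and scaled to total UMIs 615 rose and 1417 fell. Each adjusted p comes from a quasi-likelihood fit in edgeR over all genes tested.

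Of 10 fatty acid synthesis genes tested, 9 rose in Scd1-high AEC2s and none fell, with a median log2 fold change of 0.80. *Fasn* was at 719.8, 703, 742, and 879 CPM in control libraries 1 to 4 and 1042 and 739.8 CPM in Zip8 knockout libraries 1 and 2. In AEC2s of intermediate *Scd1* it was at 462, 425, 446, and 479.6 CPM in the controls and 357 and 461 CPM in the Zip8 knockout libraries. Every library had more *Fasn* in its Scd1-high cells, and no intermediate value reached the lowest Scd1-high one (log2 fold change 0.84, SE 0.078, edgeR adjusted p = 6.51e-07). *Acly* was at 393, 347, 357, and 439.7 CPM in control libraries 1 to 4 and 454 and 365 CPM in Zip8 knockout libraries 1 and 2 in Scd1-high cells and at 239, 225, 243, and 239 CPM in the controls and 166 and 237 CPM in the Zip8 knockout libraries in intermediate cells. The classes did not overlap for *Acly* either (log2 fold change 0.77, SE 0.075, edgeR adjusted p = 1.14e-06). *Acaca* was at 137, 159, 138, and 168 CPM in control libraries 1 to 4 and 134 and 147 CPM in Zip8 knockout libraries 1 and 2 in Scd1-high cells. Its intermediate values were 96.4, 121, 104, and 109 CPM in the controls and 73.3 and 102 CPM in the Zip8 knockout libraries, again lower in every library (log2 fold change 0.53, SE 0.054, edgeR adjusted p = 1.94e-06).

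The remaining genes of this list were less abundant. *Acss2*, which had been lower in Scd1-high cells than in the club-rich cells below 5, was at 14.4, 13.4, 16.0, and 19.5 CPM in control libraries 1 to 4 and 25.9 and 13.8 CPM in Zip8 knockout libraries 1 and 2, against 5.81, 3.96, 4.70, and 4.80 CPM in the controls and 5.23 and 4.96 CPM in the Zip8 knockout libraries in intermediate AEC2s. It was 3.27-fold higher within AEC2s (log2 fold change 1.71, SE 0.13, edgeR adjusted p = 9.60e-08). The mitochondrial carboxylase *Acacb* rose from low levels, 1.01 to 2.29 CPM in intermediate and 3.44 to 10.7 CPM in Scd1-high cells (log2 fold change 1.92). *Mid1ip1*, which promotes assembly of the carboxylase, rose by 0.84, the NADPH-producing malic enzyme *Me1* by 0.46, and the mitochondrial citrate carrier *Slc25a1* by 0.34 on the log2 scale. *Thrsp*, a lipogenic partner of *Mid1ip1*, rose by 0.94 but was higher in 5 of 6 libraries only, the exception being Zip8 knockout library 1. It lost the call in 6 alternatives, among them those without control library 1, control library 3, or Zip8 knockout library 2 (adjusted p from 0.0639 to 0.0824). *Slc25a1* lost it in 2 alternatives, among them that without control library 4 (adjusted p = 0.0596). The mitochondrial acyltransferase *Mcat* did not pass (0.05).

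Desaturation and elongation genes followed, with 8 of 12 higher, none lower, and a median of 0.34. *Scd2* was at 987, 757, 746, and 1189.9 CPM in control libraries 1 to 4 and 1437 and 806 CPM in Zip8 knockout libraries 1 and 2 in Scd1-high cells and at 485, 376, 383, and 464 CPM in the controls and 428 and 407 CPM in the Zip8 knockout libraries in intermediate cells. The classes did not overlap (log2 fold change 1.17, SE 0.075, edgeR adjusted p = 1.10e-08), but *Scd2* is a near copy of *Scd1*, and the extent to which reads of one were counted for the other was not tested. The front-end desaturases of polyunsaturated fatty acids also rose. *Fads1* was at 139, 128, 141, and 153 CPM in control libraries 1 to 4 and 166 and 149.7 CPM in Zip8 knockout libraries 1 and 2 in Scd1-high cells and at 71.7, 56.0, 69.6, and 59.5 CPM in the controls and 47.1 and 68.1 CPM in the Zip8 knockout libraries in intermediate cells, higher in each library (log2 fold change 1.18, SE 0.071, edgeR adjusted p = 5.21e-09). *Fads2* rose by 1.45 on the log2 scale. *Elovl1*, the elongase of very long saturated chains, was at 1056, 892, 917, and 1004 CPM in control libraries 1 to 4 and 1327 and 1093 CPM in Zip8 knockout libraries 1 and 2. In intermediate cells it was at 738, 575, 652, and 520.3 CPM in the controls and 474 and 737 CPM in the Zip8 knockout libraries (log2 fold change 0.75, SE 0.088, edgeR adjusted p = 8.35e-06). *Elovl5*, *Tecr*, *Hsd17b12*, and *Hacd3*, which act in the elongation cycle, rose by 0.27 to 0.36, whereas *Elovl7* gave −0.25 and did not pass.

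The cholesterol genes had the highest median of the lists. Of 22 tested, 21 rose, with a median log2 fold change of 1.07, and the only one that did not pass was the sterol isomerase gene *Ebp* (−0.07), named after its value was seen. *Fdps*, which makes farnesyl diphosphate, was at 209, 175, 239.7, and 315 CPM in control libraries 1 to 4 and 444 and 227 CPM in Zip8 knockout libraries 1 and 2 in Scd1-high cells. In intermediate cells it was at 101, 86.6, 118, and 103 CPM in the controls and 141 and 100.4 CPM in the Zip8 knockout libraries. The highest value in both classes was that of Zip8 knockout library 1, and the classes did not overlap (log2 fold change 1.25, SE 0.077, edgeR adjusted p = 6.94e-09). *Mvd*, the mevalonate decarboxylase, was at 46.6, 35.3, 39.6, and 67.6 CPM in control libraries 1 to 4 and 75.2 and 45.5 CPM in Zip8 knockout libraries 1 and 2 in Scd1-high and at 19.2, 18.1, 16.4, and 16.0 CPM in the controls and 28.8 and 18.3 CPM in the Zip8 knockout libraries in intermediate cells (log2 fold change 1.47, SE 0.10, edgeR adjusted p = 2.24e-08). The rises of *Nsdhl* (1.39), *Msmo1* (1.22), *Sqle* (1.21), *Idi1* (1.10), *Hmgcs1* (1.09), and *Cyp51* (1.04) were also among the 15 largest rises of well-expressed genes.

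**Figure D2:**
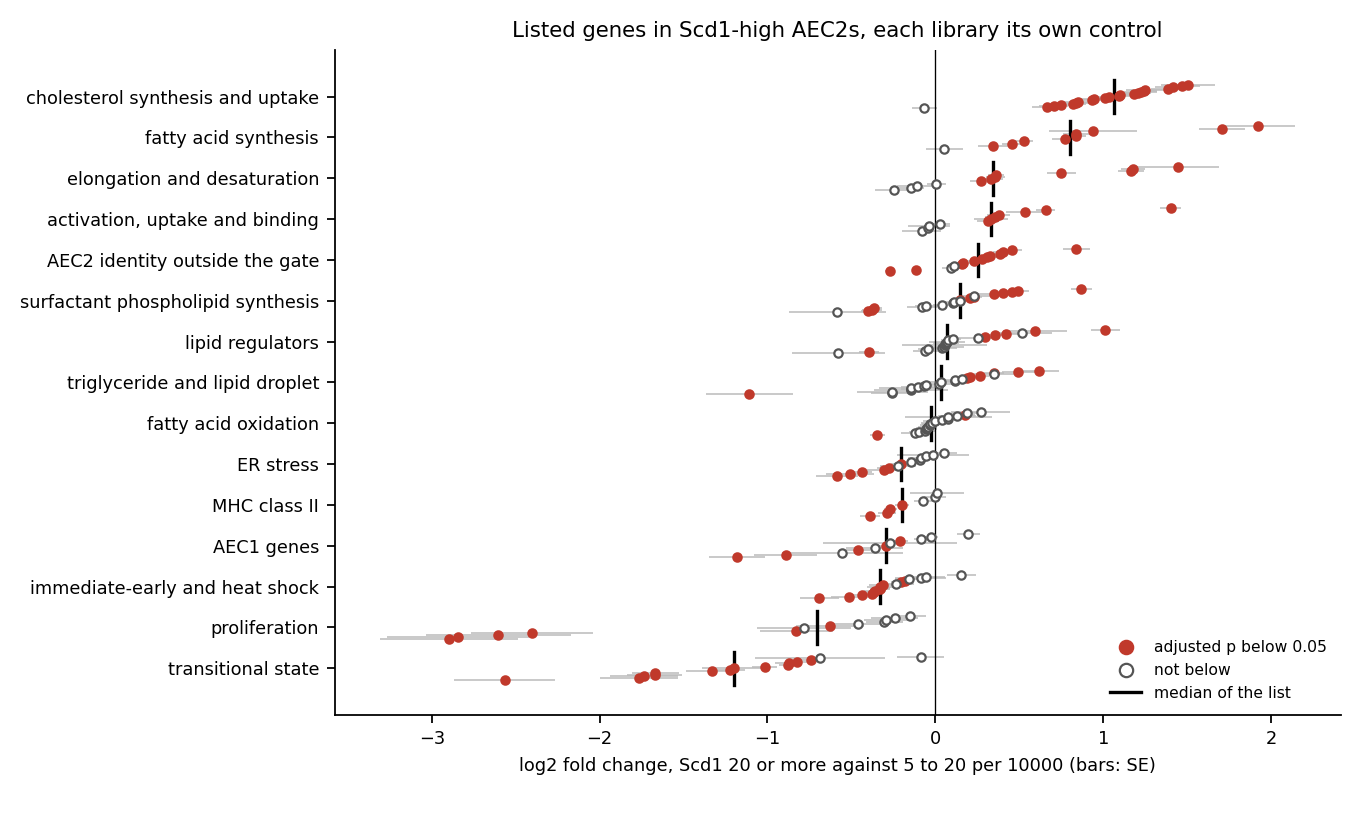
log2 fold change of each listed gene between Scd1-high AEC2s and AEC2s with 5 to 20 *Scd1* per 10000 of the same library (horizontal axis; bars are SE), by list, with filled points for an adjusted p below 0.05 and a black line at the median of each list. Cholesterol (median 1.07) and fatty acid synthesis (0.80) stood at the high end, and the transitional state (−1.20) at the low end.

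Regulators of lipid synthesis came next. Of 19 tested, 5 rose and 1 fell, with a median of 0.07, beside 8.18% and 9.0% of all genes. *Insig1* was at 241, 229, 194, and 317 CPM in control libraries 1 to 4 and 273 and 209.7 CPM in Zip8 knockout libraries 1 and 2 in Scd1-high cells and at 136, 110.4, 114, and 112 CPM in the controls and 103 and 130.1 CPM in the Zip8 knockout libraries in intermediate cells, with no overlap (log2 fold change 1.01, SE 0.087, edgeR adjusted p = 2.62e-07). *Srebf1* was at 131, 117, 117, and 139.8 CPM in control libraries 1 to 4 and 140.2 and 116 CPM in Zip8 knockout libraries 1 and 2 in Scd1-high cells and at 101, 82.1, 97.5, and 107 CPM in the controls and 78.5 and 111 CPM in the Zip8 knockout libraries in intermediate cells. It was higher in each library by a smaller margin (log2 fold change 0.35, SE 0.065, edgeR adjusted p = 8.33e-04). *Srebf2* (0.30) and the SREBP escort *Scap* (0.42) also rose. The carbohydrate-response factor *Mlxipl* passed narrowly (log2 fold change 0.59, SE 0.19, edgeR adjusted p = 0.039) at 1.31 to 5.55 CPM in intermediate and 4.34 to 6.53 CPM in Scd1-high cells, and it lost the call in 10 alternatives, among them those without control library 2, 3, or 4 or Zip8 knockout library 2 (adjusted p from 0.0591 to 0.134). *Cebpb* was the gene that fell (−0.40). The nuclear receptor genes *Ppara* (0.52, adjusted p = 0.058) and *Pparg* (−0.58, adjusted p = 0.175) did not pass.

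Promoter sequences (RefSeq, GRCm38.p6, 250 bases before to 50 after each start) were searched on both strands for the SREBP element TCACNCCAC and the E-box CACGTG. The search describes the starts of the listed lipid genes, whether or not they moved with *Scd1*. The first was found in 1 of 15 matched cholesterol genes (of 23 listed), in 0 of 10 matched fatty acid synthesis genes (of 11), in 0 of 17 elongation and desaturation genes (of 20), and in 1 of 18 regulators (of 20), beside 1.44% of all 27025 genes. The E-box was found in 3, 1, 3, and 5 genes of these lists, beside 8.09% of all genes. Such a match is a description of letters and not a binding site. The stretch around the match, in capitals, is printed 5′ to 3′ on the gene's own strand for 1 gene of each list that rose.
Hmgcs1, plus strand, chr13:119690184-119690252: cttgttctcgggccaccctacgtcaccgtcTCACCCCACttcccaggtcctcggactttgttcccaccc
Slc25a1, minus strand, chr16:17928423-17928469: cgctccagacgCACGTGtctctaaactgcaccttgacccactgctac
Elovl5, plus strand, chr9:77917174-77917239: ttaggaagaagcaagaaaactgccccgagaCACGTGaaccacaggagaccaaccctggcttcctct
Insig1, plus strand, chr5:28071281-28071346: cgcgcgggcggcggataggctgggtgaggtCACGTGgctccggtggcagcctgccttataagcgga
The matches began 137, 239, 161, and 101 bases before the starts of *Hmgcs1*, *Slc25a1*, *Elovl5*, and *Insig1*.

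Genes that bind, activate, and import fatty acids rose in 7 of 11 cases and fell in none (median 0.33). *Fabp5*, an epidermal-type fatty acid binding protein, was at 1849.8, 1577, 1967, and 2207 CPM in control libraries 1 to 4 and 3002 and 1569 CPM in Zip8 knockout libraries 1 and 2 in Scd1-high cells. In intermediate cells it was at 838, 628, 745, and 695 CPM in the controls and 915 and 692 CPM in the Zip8 knockout libraries. The lowest Scd1-high value lay well above the highest intermediate one (log2 fold change 1.40, SE 0.063, edgeR adjusted p = 7.06e-11). The acyl-CoA binding protein *Dbi* rose by 0.66 and the lipase *Lpl* by 0.38 on the log2 scale. Of 9 NADPH genes, 3 rose, among them *Idh1* (0.60) and *Tkt* (0.54), and the folate enzyme *Mthfd2* fell (−0.80). Over all genes tested the shares were 8.18% and 9.0%. The call of *Mthfd2* was lost in 9 alternatives, among them those without control library 1 or 3 or either Zip8 knockout library (adjusted p from 0.0565 to 0.12).

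Genes of fat storage and breakdown had medians near 0. Of 21 triglyceride and lipid droplet genes, 6 rose and 1 fell (median 0.03). The fall was that of *Agpat4* (−1.11), named after its value was seen. The rises included *Gpam*, the first step of glycerolipid synthesis, at 0.62, the phosphatidate phosphatase *Lpin1* at 0.49, and the droplet coat *Plin2* at 0.27. *Lpin1* and *Plin2* each lost the call in 2 alternatives and *Gpam* in 1. Of 18 fatty acid oxidation genes, 1 rose and 1 fell (*Hadh*, −0.35), beside 8.18% and 9.0% of all genes, and the call of the rise was lost in 11 alternatives. The list's median was −0.03.

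Phospholipid and surfactant genes were mixed. Of 19 surfactant phospholipid genes, 8 rose and 3 fell, beside 8.18% and 9.0% of all genes. The rises included *Pcyt2* (0.87) and *Etnk1* (0.40) of the phosphatidylethanolamine branch and *Lpcat1* (0.46), which remodels phosphatidylcholine for surfactant, and the falls included the secreted phospholipase *Pla2g1b* (−0.40). Among surfactant proteins and lamellar body genes, 5 of 10 rose and 3 fell. *Sftpb* was at 11313, 10075, 11079, and 11226 CPM in control libraries 1 to 4 and 10404 and 11413 CPM in Zip8 knockout libraries 1 and 2 in Scd1-high and at 9832, 8758, 9848, and 9441 CPM in the controls and 6549 and 9969 CPM in the Zip8 knockout libraries in intermediate cells, a 1.21-fold rise (log2 fold change 0.28, SE 0.048, edgeR adjusted p = 4.20e-04). *Abca3* rose by 0.40 and the AEC2 chemokine *Cxcl15* by 0.32, whereas *Sftpd* (−0.27) and the processing protease gene *Ctsh* (−0.54) fell.

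**Figure D3:**
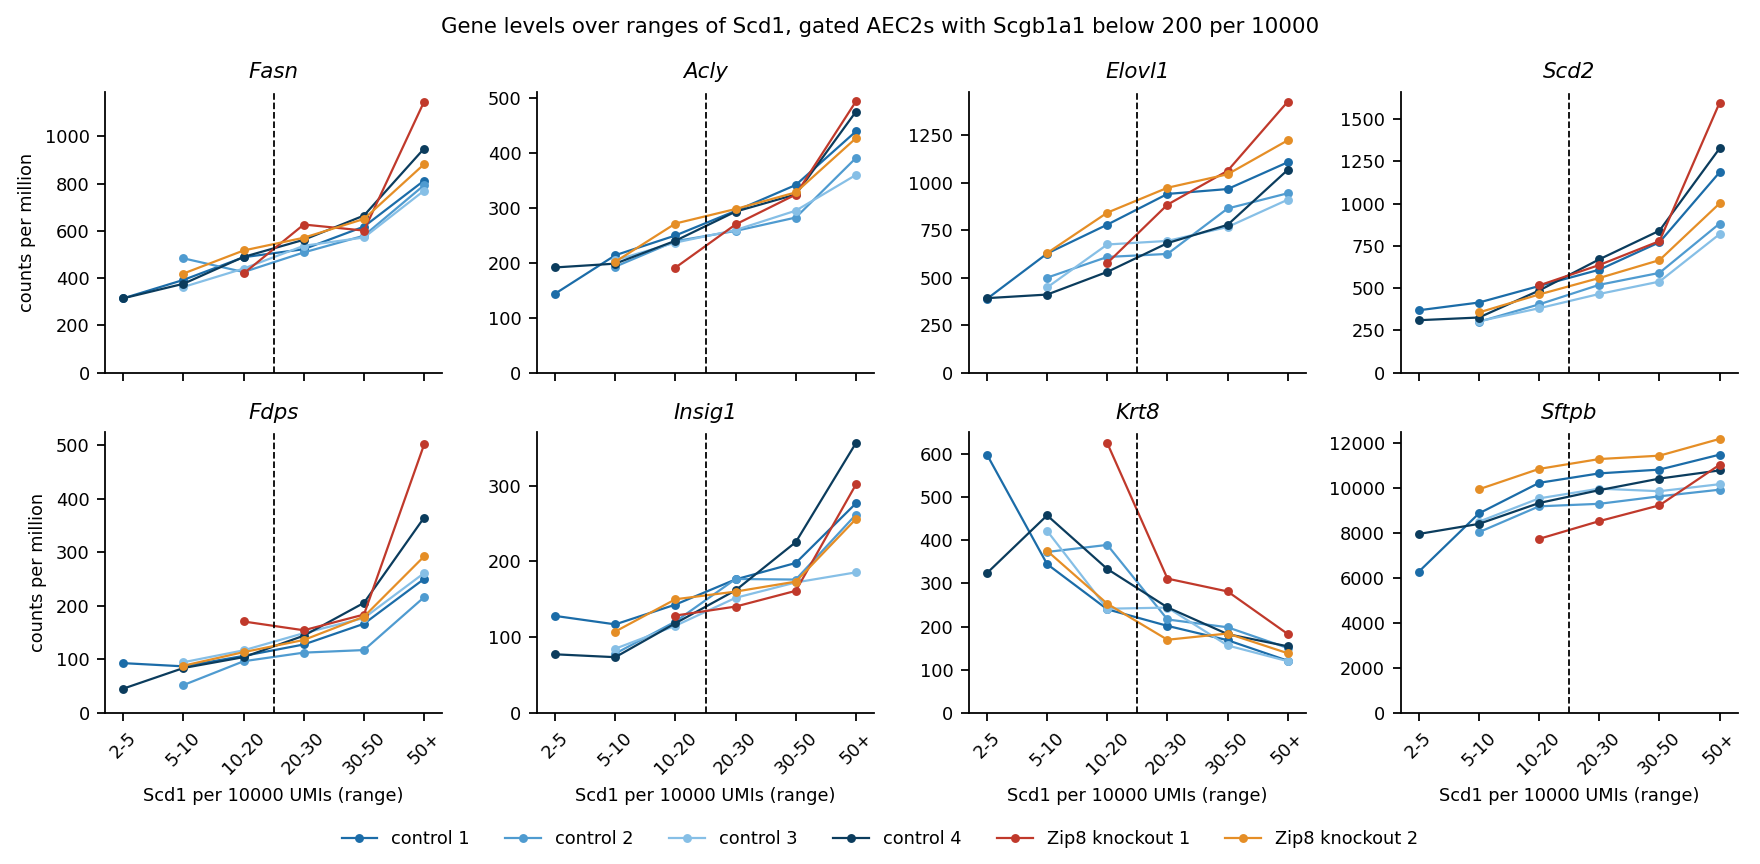
Level of 8 genes (vertical axis, CPM scaled to total UMIs) over ranges of *Scd1* (horizontal axis, UMIs per 10000) in gated AEC2s with less than 200 *Scgb1a1* per 10000, 1 line per library, with ranges of fewer than 20 cells left out and a dashed line at the limit of 20. The lipid genes rose and *Krt8* fell over the whole range with no step at the limit.

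The limit of 20 cut through a gradient. Summed over cells with less than 200 *Scgb1a1* per 10000 and scaled to total UMIs, *Fasn* spanned 362 to 484 CPM over the libraries where *Scd1* was 5 to 10, 419.5 to 517 CPM at 10 to 20, 509 to 627 CPM at 20 to 30, 572 to 665 CPM at 30 to 50, and 771 to 1148 CPM at 50 and over. *Scd2* spanned 301 to 415 CPM in the first of these ranges and 819.8 to 1598 CPM in the last. *Fdps* spanned 52.3 to 94.9 and 216 to 501 CPM in these, and *Insig1* 73.7 to 117 and 186 to 356 CPM. The highest levels were in the top range, where Zip8 knockout library 1 had the highest *Fasn*, *Scd2*, and *Fdps* of all libraries. Just outside the limit, at 15 to 20, *Fasn* held 496, 468, 445, and 546 CPM in control libraries 1 to 4 and 505 and 581 CPM in Zip8 knockout libraries 1 and 2. Just inside, at 20 to 25, it held 466, 534, 529, and 524 CPM in the controls and 598 and 591 CPM in the Zip8 knockout libraries, which was more in 4 libraries and less in control libraries 1 and 4. *Elovl1* held 787, 622, 695, and 561 CPM in the controls and 547 and 909 CPM in the Zip8 knockout libraries just outside, and 887, 666, 652, and 665 CPM and 886 and 860.5 CPM just inside, which was more in 4 libraries and less in control library 3 and Zip8 knockout library 2. These ranges held 18 to 179 and 39 to 169 cells per library, the fewest in Zip8 knockout library 1.

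Genes of the transitional alveolar state, which AEC2s express on the way to type 1 cells after injury, fell as a list. Of 15 tested, 13 fell in Scd1-high AEC2s and none rose, with a median of −1.20, beside 9.0% of all genes. *Krt8*, the keratin that names this state, was at 149.97, 183, 169, and 184 CPM in control libraries 1 to 4 and 189.7 and 150.3 CPM in Zip8 knockout libraries 1 and 2 in Scd1-high cells. In intermediate cells it was at 263, 376, 309.8, and 375 CPM in the controls and 564 and 269 CPM in the Zip8 knockout libraries. All intermediate values exceeded all Scd1-high ones (log2 fold change −1.02, SE 0.073, edgeR adjusted p = 3.30e-08). *S100a6* was at 78.0, 49.8, 58.4, and 48.7 CPM in control libraries 1 to 4 and 28.4 and 42.3 CPM in Zip8 knockout libraries 1 and 2 in Scd1-high cells, against 207, 213, 269, and 385 CPM in the controls and 916 and 140.0 CPM in the Zip8 knockout libraries in intermediate cells (log2 fold change −2.57, SE 0.30, edgeR adjusted p = 9.56e-06). *Lgals3*, the gene of galectin-3, was at 68.2, 48.5, 57.1, and 65.0 CPM in control libraries 1 to 4 and 129 and 49.6 CPM in Zip8 knockout libraries 1 and 2 in Scd1-high and at 131, 154, 159, and 182 CPM in the controls and 1255 and 126 CPM in the Zip8 knockout libraries in intermediate cells. The 64 intermediate cells of Zip8 knockout library 1 had the highest *Krt8*, *S100a6*, and *Lgals3* of any library, and each of these genes was lower in Scd1-high cells of the other 5 libraries as well. *Sfn* (−1.67), the EGF receptor ligands *Areg* (−1.67) and *Hbegf* (−0.88), *Clu* (−1.22), and *Krt19* (−1.20) fell too.

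**Figure D4:**
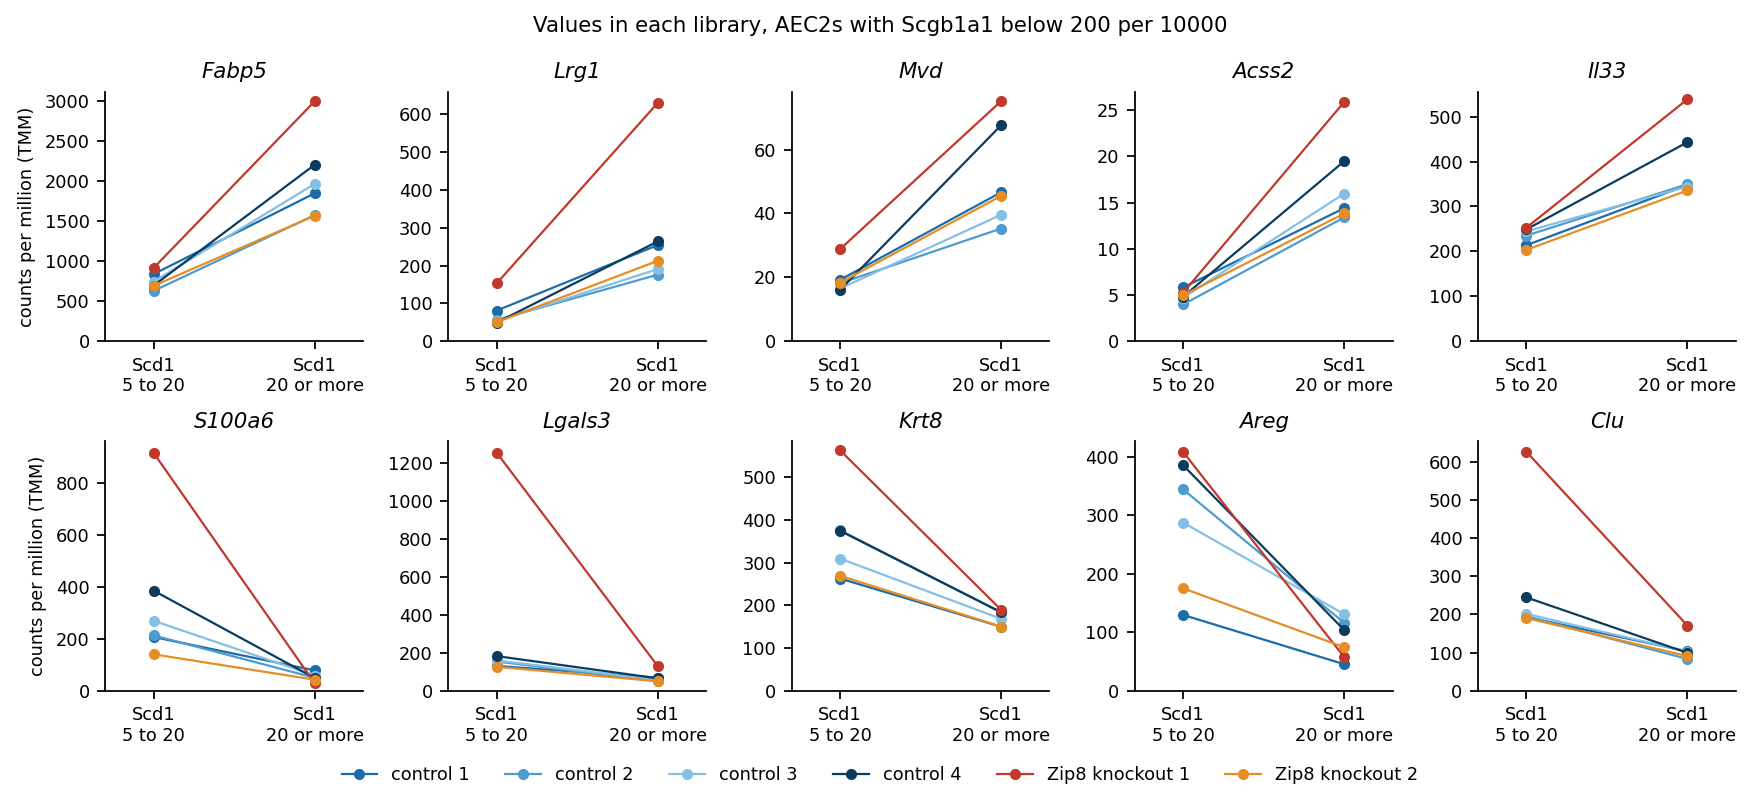
Level of 10 genes (vertical axis, TMM-scaled CPM) in AEC2s with 5 to 20 *Scd1* per 10000 and in Scd1-high AEC2s (horizontal axis), both with less than 200 *Scgb1a1* per 10000, 1 line per library. *Fabp5*, *Lrg1*, *Mvd*, *Acss2*, and *Il33* were higher and *S100a6*, *Lgals3*, *Krt8*, *Areg*, and *Clu* lower in the Scd1-high cells of all 6 libraries.

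The largest falls of well-expressed genes held others outside the list. These were the cornified-envelope gene *Sprr1a* (log2 fold change −4.21), the potassium channel gene *Kcnk2* (−1.96), the thrombospondin gene *Thbs1* (−1.67), the annexin genes *Anxa1* (−1.42) and *Anxa5* (−1.09), the TWEAK receptor gene *Tnfrsf12a* (−1.42), *Ndnf* (−1.14), and the metalloproteinase inhibitor gene *Timp2* (−1.04). Of 11 type 1 cell (AEC1) genes, 5 fell and none rose (median −0.30), beside 9.0% of all genes that fell. Among the falls were *Cav1* (−1.18) and *Clic5* (−0.46), while *Pdpn* at −0.27 did not pass.

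Stress and cycling genes also stood lower in Scd1-high AEC2s. Of 17 immediate-early and heat shock genes, which respond to tissue dissociation among other stimuli, 12 fell and none rose (median −0.33). *Nr4a1* fell (−0.44), and *Atf3*, at −0.69, was lower in 5 of 6 libraries. Without the library as a block only 1 gene of this list passed. Of 13 ER stress genes, 6 fell and none rose (median −0.21), among them *Ddit3* (−0.58) and *Atf4* (−0.27). Of 12 proliferation genes, 6 fell and none rose (median −0.70). The share to set beside each of these lists is the 9.0% of all genes tested that fell. *Mki67*, the standard marker of cycling cells, was at 0.567, 0, 3.87, and 2.90 CPM in control libraries 1 to 4 and 3.45 and 3.21 CPM in Zip8 knockout libraries 1 and 2 in Scd1-high cells, against 33.8, 10.2, 9.98, and 10.3 CPM in the controls and 3.93 and 29.4 CPM in the Zip8 knockout libraries in intermediate cells. *Mki67* was thus scarce in both classes and lower in the Scd1-high cells of each library (log2 fold change −2.85, SE 0.42, edgeR adjusted p = 1.13e-04), as was *Birc5* (−2.90). *Top2a* (−2.60) and *Cdk1* (−2.40) fell in the fit but not in Zip8 knockout library 1.

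Some secreted and immune genes rose with *Scd1*. *Lrg1*, a leucine-rich glycoprotein of the acute phase, was the largest rise of all well-expressed genes, at 254, 176, 191, and 264 CPM in control libraries 1 to 4 and 631 and 213 CPM in Zip8 knockout libraries 1 and 2 in Scd1-high cells. Its intermediate values were 80.8, 56.0, 52.9, and 49.2 CPM in the controls and 153 and 50.2 CPM in the Zip8 knockout libraries. Zip8 knockout library 1 was the highest in each class, and every library rose (log2 fold change 1.96, SE 0.081, edgeR adjusted p = 3.06e-11). *Il33*, an alarmin cytokine of AEC2s, was at 348, 349.6, 344, and 443 CPM in control libraries 1 to 4 and 539 and 336 CPM in Zip8 knockout libraries 1 and 2 in Scd1-high and at 214, 235, 245, and 249 CPM in the controls and 253 and 203 CPM in the Zip8 knockout libraries in intermediate cells, with no overlap (log2 fold change 0.72, SE 0.059, edgeR adjusted p = 1.48e-07). *Cst8* (1.11) and *Itih4* (1.03) were among the 15 largest rises as well. Of 14 MHC class I genes, 3 rose, *H2-K1* by 0.27, and none fell, whereas of 7 MHC class II genes 4 fell, among them *Cd74* (−0.27) and *H2-Eb1* (−0.39), and none rose. The inflammatory list held 4 rises and 2 falls, and the fall of the chemokine *Cxcl2* (−1.30) was seen in 3 of 6 libraries. Beside these counts, 8.18% of all genes tested rose and 9.0% fell.

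Of the zinc, sirtuin, and aging genes that the study follows, 3 of 20 rose and 3 fell, beside 8.18% and 9.0% of all genes. *Slc39a8* was at 268, 263, 259, and 259.6 CPM in control libraries 1 to 4 and 254 and 253 CPM in Zip8 knockout libraries 1 and 2 in Scd1-high AEC2s. In intermediate cells it was at 214, 200.4, 197, and 183 CPM in the controls and 173 and 196 CPM in the Zip8 knockout libraries. The zinc importer was thus higher in the Scd1-high cells of every library under both labels (log2 fold change 0.41, SE 0.046, edgeR adjusted p = 3.98e-06). *Chil1*, a chitinase-like secreted protein, rose by 0.73 with a wide spread between libraries, from 257 to 4519 CPM in Scd1-high cells. The metallothionein gene *Mt2* fell (−0.37), a call lost with no library block, in cells of 5000 to 15000 UMIs, and in cells thinned to 3000 UMIs (adjusted p from 0.494 to 0.576), and *Sirt1* did not pass (−0.10).

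The genotype labels were compared within Scd1-high AEC2s over 12650 genes, first for the targeted gene. *Slc39a8* stood at 259, 255, 252, and 252 CPM in control libraries 1 to 4 and 242 and 244 CPM in Zip8 knockout libraries 1 and 2. The difference did not pass (log2 fold change −0.07, SE 0.075, edgeR adjusted p = 0.789), and it was −0.06 without Zip8 knockout library 1. Its sign turned with the scaling: per total UMIs the Zip8 knockout libraries held 253 and 259 CPM, inside the control range of 233 to 262 CPM, for a log2 fold change of 0.05. The libraries count the 3′ end of transcripts, and whether these counts could show the deletion was not tested, so that each direction below is between the libraries as labelled.

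Of the genes tested, 0.0553% passed in either direction, with 6 genes higher and 1 gene lower under the Zip8 knockout label, and 1306 had an unadjusted p below 0.05. The counts rested on single libraries: without Zip8 knockout library 1 they were 4 and 1, without library 2 they were 250 and 157, and without control library 2 or 3 they were 4 and 0. *Esr1*, the estrogen receptor gene of which the CreER fusion carries a part, stood at 0.108, 0, 0.0920, and 0.122 CPM in control libraries 1 to 4 and 21.1 and 22.8 CPM in Zip8 knockout libraries 1 and 2, which is near 0 in every control (adjusted p = 6.22e-07 by edgeR), and the source of these UMIs was not tested. *Gt(ROSA)26Sor*, the transcript of the Rosa26 locus, stood at 8.72, 7.79, 6.90, and 7.39 CPM in control libraries 1 to 4 and 18.3 and 21.1 CPM in Zip8 knockout libraries 1 and 2 (log2 fold change 1.35, SE 0.12, edgeR adjusted p = 0.00367). *Bmp1*, a procollagen protease that lies beside *Sftpc* on chromosome 14, stood at 70.1, 71.9, 67.1, and 52.1 CPM in control libraries 1 to 4 and 176 and 208 CPM in Zip8 knockout libraries 1 and 2, with no overlap of the groups (log2 fold change 1.56, SE 0.13, edgeR adjusted p = 0.00367).

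*Cdkn1a*, the cell cycle inhibitor p21, stood at 41.9, 58.2, 45.7, and 55.8 CPM in control libraries 1 to 4 and 158 and 114 CPM in Zip8 knockout libraries 1 and 2 (log2 fold change 1.44, SE 0.15, edgeR adjusted p = 0.0148). Both Zip8 knockout libraries exceeded all controls. *Phlda3*, like *Cdkn1a* a target of p53 and named after its values were seen, was at 5.49, 2.77, 5.16, and 5.89 CPM in control libraries 1 to 4 and 27.7 and 15.3 CPM in Zip8 knockout libraries 1 and 2 (log2 fold change 2.08, SE 0.25, edgeR adjusted p = 0.0305), and the uncharacterized gene *9030617O03Rik* was at 0.969, 0.693, 1.01, and 0.934 CPM in control libraries 1 to 4 and 4.52 and 3.17 CPM in Zip8 knockout libraries 1 and 2 (log2 fold change 2.05, SE 0.25, edgeR adjusted p = 0.0305). *Spink5*, a protease inhibitor, was the gene that fell, at 52.7, 46.2, 51.0, and 46.9 CPM in control libraries 1 to 4 and 27.4 and 21.3 CPM in Zip8 knockout libraries 1 and 2 (log2 fold change −1.01, SE 0.11, edgeR adjusted p = 0.0167). *9030617O03Rik* and *Phlda3* lost the call when any 1 control library or Zip8 knockout library 1 was left out (adjusted p from 0.0612 to 0.667). In all, *9030617O03Rik* lost it in 11 alternatives and *Phlda3* in 5. *Cdkn1a* lost it without control library 3 (adjusted p = 0.0864) and, like *Gt(ROSA)26Sor*, with the replicate numbers as a block. *Spink5* lost it without control library 1, 2, or 3 (adjusted p from 0.0523 to 0.0864) and at a limit of 30 *Scd1* (adjusted p = 0.115). Without Zip8 knockout library 1 the log2 fold change was 1.68 for *Bmp1*, 1.45 for *Gt(ROSA)26Sor*, 1.19 for *Cdkn1a*, and −1.21 for *Spink5*. *Phlda3* gave 1.57 and *9030617O03Rik* 1.76, and *Esr1* stood at 22.8 CPM in the Zip8 knockout library that remained. Wherever a Zip8 knockout library was left out between labels, 1 library held that label and the spread came from the controls alone. *Sftpc*, a gate gene given without a test, was lower in both Zip8 knockout libraries than in all controls, as its levels above show.

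No lipid list held a gene that passed between the labels, beside 0.0553% of all 12650 genes tested. *Fasn* stood at 696, 686, 719.6, and 851 CPM in control libraries 1 to 4 and 995 and 716 CPM in Zip8 knockout libraries 1 and 2 in Scd1-high cells. Zip8 knockout library 1 was above all controls and library 2 inside their range (log2 fold change 0.21, SE 0.14, edgeR adjusted p = 0.618), and without library 1 the log2 fold change was −0.04. *Elovl1* stood at 1027, 869, 896, and 971 CPM in control libraries 1 to 4 and 1263 and 1053 CPM in Zip8 knockout libraries 1 and 2, and although both Zip8 knockout libraries exceeded the controls the difference did not pass (log2 fold change 0.30, SE 0.10, edgeR adjusted p = 0.398). The level of *Chil1* was 1409.7, 1261, 253, and 333 CPM in control libraries 1 to 4 and 4328 and 1353 CPM in Zip8 knockout libraries 1 and 2, with library 2 inside the control range (log2 fold change 1.80, SE 0.67, edgeR adjusted p = 0.418). *H2-K1* gave 0.40 (adjusted p = 0.567) and *Pdpn* 0.89 (adjusted p = 0.494). Without Zip8 knockout library 1, *H2-K1* turned to −0.17, *Pdpn* gave 0.25, *Chil1* gave 0.73, and *Elovl1* gave 0.16. Club cell RNA in Scd1-high cells was highest in Zip8 knockout library 1, at 33214 CPM of total UMIs. In the cells with less than 200 *Scgb1a1* per 10000, 5 genes were higher and 1 lower between the labels, and *Fasn* gave 0.23 and *Chil1* 1.83.

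**Figure D5:**
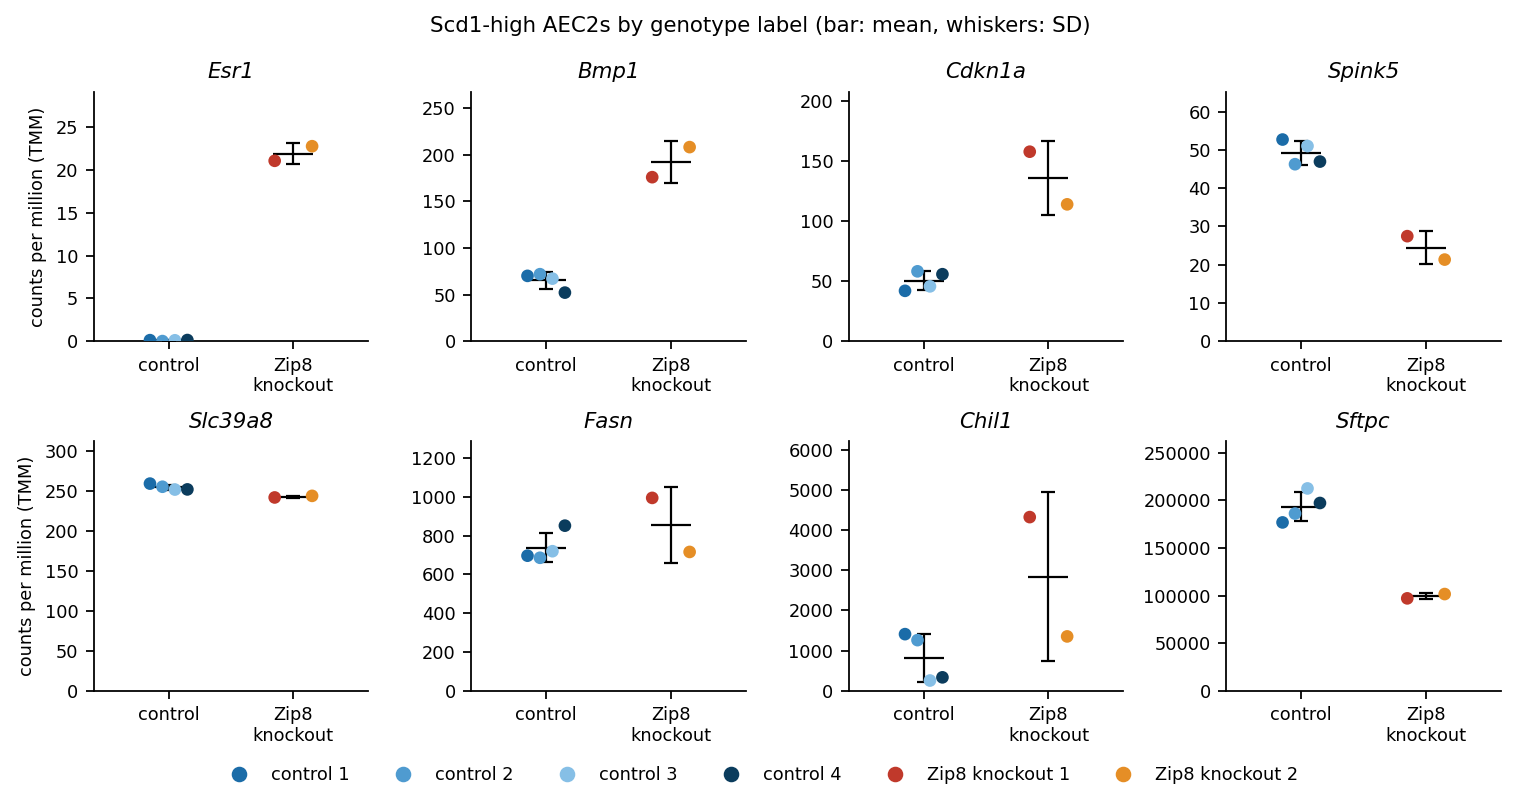
Level of 8 genes in Scd1-high AEC2s (vertical axis, TMM-scaled CPM) in the 4 control libraries and the 2 libraries labelled Zip8 knockout (horizontal axis), 1 point per library, with the mean as a bar and the SD as whiskers. *Esr1*, *Bmp1*, and *Cdkn1a* stood higher and *Spink5* and *Sftpc* lower in both Zip8 knockout libraries than in any control, while *Fasn* and *Chil1* overlapped.

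The label difference in Scd1-high cells was set against that in gated cells below 5 as an interaction over 12190 genes. In all, 0.0328% passed, 4 higher and none lower, and 827 had an unadjusted p below 0.05. Without Zip8 knockout library 2, 81 genes passed higher and 10 lower, and without Zip8 knockout library 1 or control library 3, 1 passed. *Esr1* and *Bmp1* were among them, with a larger rise under the Zip8 knockout label in Scd1-high cells, and no gene of a lipid list was. Because the cells below 5 were mostly rich in *Scgb1a1*, this contrast was also largely one of AEC2s against club-like cells. Against AEC2s of intermediate *Scd1*, with less than 200 *Scgb1a1* per 10000 in both, 3 of 11436 genes passed higher, the globin genes *Hba-a2*, *Hbb-bs*, and *Hba-a1* (named after their values were seen), and none lower, and *Esr1* (2.10) and *Bmp1* (0.22) were not among them (edgeR adjusted p = 1.0 for each).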

How the data were processed

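The authors used Cell Ranger 3.1.0 with the mm10 genome, and the deposited values are raw UMI counts for each gene in each barcode, not normalized. The labels name a 3′ kit. The members and gene lists were chosen with earlier results of these data known. Counts were summed per library and class and tested with edgeR 4.0.16 (R 4.3.3; filterByExpr, TMM, quasi-likelihood test, Benjamini-Hochberg, adjusted p below 0.05), with the library as a block between classes. DESeq2 1.42.0 was an alternative. Cell quality was compared by an exact sign-flip test over libraries (two-sided). The share of Scd1-high cells was compared between labels by an exact permutation test. The median of *Scd1*, which chose the cells, is given with no test. Named genes were those of the fatty acid synthesis, elongation, and regulator lists, up to 4 of smallest adjusted p per other list, genes the study names, the 15 largest changes per direction with at least 50 CPM and 1 direction in all 6 libraries, and up to 5 per direction between labels. On simulated counts, edgeR recovered 87 of 100 genes changed by 1 log2 unit between Scd1-high cells and those below 5 (10832 genes), with 15 false calls, and 71 of 100 between labels (12488 genes), with 9. For the interaction it recovered 46 of 100 (12114 genes), with 10 false calls. The contrast with intermediate cells was not simulated. Doublet callers were used only in an alternative, which left out the highest scrublet scores at 0.8% per 1000 barcodes. The values of some single genes are not reported here.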

Additional observations from a re-analysis of the deposited data

Results flagged for a closer look

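Over the 4 control libraries, 112 measures were examined, most of them gene levels in Scd1-high AEC2s and the rest shares, *Scd1* medians, and cell quality. For 7 of them, all genes, 1 value stood far from the other 3, and chance flags about 1 in 20 such groups. *Clu* was at 80.9 CPM in control library 2, under 97.5, 100.4, and 100.5 in the others. *Mthfd2*, at 1.39 CPM in control library 2, lay under 2.69, 2.76, and 2.72. *Tnfrsf12a* was at 20.1 CPM in control library 1, under 29.96, 29.2, and 29.9. *Il33*, at 428 CPM in control library 4, lay over 336, 339, and 333, and *Tkt*, at 282 CPM in the same library, over 262, 264, and 263. *Muc5b*, a mucin of airway secretory cells, was at 7.73 CPM in control library 3, over 2.21, 1.56, and 1.95. *Hba-a2*, an α-globin gene, was at 181 CPM in control library 4, against 1.24, 12.1, and 0.644 CPM. Scaled to total UMIs, the 5 erythroid genes summed to 2386 CPM in Scd1-high cells of that library and to 8.54 to 234 CPM in the other 5 libraries, and whether this is free RNA was not tested.

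The difference between genotype labels was itself different in Scd1-high cells and in gated cells below 5 for 4 genes by edgeR's interaction test. The difference of the log2 fold changes was 8.31 for *Esr1* (adjusted p = 0.00548, a fitted value against controls near 0), 4.03 for the α-globin gene *Hba-a2* (adjusted p = 0.0264), 1.45 for the basement membrane collagen gene *Col4a2* (adjusted p = 0.0318), and 1.45 for *Bmp1* (adjusted p = 0.0318). Each difference of fold changes is Scd1-high minus below 5. For *Hba-a2* the log2 fold change in Scd1-high cells was itself −2.12 and did not pass, and for *Col4a2* it was 0.20 and did not pass. Each of the 4 genes lost its interaction call in 4 to 8 alternatives. Against AEC2s of intermediate *Scd1* with little *Scgb1a1*, *Hba-a2* gave 3.99 (adjusted p = 0.00125 by edgeR), and *Esr1*, *Col4a2*, and *Bmp1* did not pass.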

How the results depend on the processing

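Depth, the club-like cells below 5 *Scd1* per 10000, and 2 Zip8 knockout libraries limit these results. Against cells below 5, 3576 genes were higher and 3405 lower. These counts were 8900 and 835 when scaled to total UMIs (a median shift of 0.91 log2), 2126 and 2065 with all 4 gate markers, 619 and 599 in cells of 5000 to 15000 UMIs, 1107 and 993 in cells thinned to 3000 UMIs, 987 and 947 with *Scgb1a1* below 200, and 3226 to 3566 and 3080 to 3591 when 1 library was left out. *Acss2* turned to 0.88 in cells of 5000 to 15000 UMIs and to 1.73 with *Scgb1a1* below 200. Against intermediate cells, 873 were higher and 961 lower. These counts were 615 and 1417 when scaled to total UMIs, 384 and 400 with no library block, 508 and 534 in cells of 5000 to 15000 UMIs, 297 and 347 when thinned, and 589 to 918 and 662 to 983 when 1 library was left out. Cholesterol genes kept 21 or 22 rises in every alternative run, fatty acid synthesis 7 to 9, and the transitional list 12 to 15 falls. *Mcat* turned to −0.12 when thinned and ran from −0.0168 (without control library 4) to 0.0924 when 1 library was left out.

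Between labels, 6 genes were higher and 1 lower. The counts were 27 and 27 by DESeq2, 71 and 32 with no filter, and 4 to 250 and 0 to 157 when 1 library was left out, and the lower count was 0 at a limit of 30 *Scd1*. When 1 library was left out *Fasn* ran from −0.0443 to 0.429 and *H2-K1* from −0.17 to 0.804, each lowest without Zip8 knockout library 1, and *Slc39a8* turned to 0.0480 when scaled to total UMIs. For the interaction, with 4 higher and 0 lower, the higher count was 7 when scaled to total UMIs, 17 by DESeq2, 7 with the stricter cell filter, 0 with all 4 gate markers, and 7 without shared barcodes. Both counts were 177 and 29 with no filter, 20 and 20 in cells of 5000 to 15000 UMIs, and 8 and 1 when thinned, the lower count was 1 without high doublet scores, and leaving out 1 library gave 1 to 81 and 0 to 10. Where no construction explains such a move, the cause was not tested. The share of Scd1-high cells differed by 5.09 to 19.1 points and the median *Scd1* by 6.34 to 66.7 per 10000 over all alternatives. Each kept its direction, and these alternatives are given with no test. Correlations between libraries of the same replicate number were −0.03 and 0.13. The deviations of 2 Zip8 knockout libraries from their mean are mirror images, so this cannot decide whether the numbers pair the samples. With the numbers as a replicate block 7 genes were higher and 5 lower. *Cdkn1a* (edgeR adjusted p = 0.139), *Gt(ROSA)26Sor* (0.117), and *9030617O03Rik* (0.153) lost the call. Control libraries 3 and 4 have no Zip8 knockout library of their number and added nothing to the blocked difference. Over libraries 1 and 2 of each label the share differed by 13.7 points and the median by 38.0.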
